A study of Mus musculus with 2 samples.

Results

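The interferon-stimulated effector genes described here were 40 named mouse genes, found by symbol in the single-cell expression matrices. Of the 40, 39 had a row among the 32285 genes of both matrices, and Mx1 had none. The matrices hold UMI counts (a unique molecular identifier tags each captured mRNA) for single cells from dissociated cochlear tissue of CBA/CaJ mice aged 4 to 6 weeks. In the AAV-Isl1 plus noise group, ears had been given an adeno-associated virus (AAV) carrying Isl1, the gene of a LIM homeodomain transcription factor. The noise-only group was the opposite ear of the same mice, with no treatment named in the labels and thus no control vector. Noise of 105 dB from 1 to 20 kHz for 2 h was applied to both groups, and tissue was collected 2 days later. Ears of 5 mice were pooled into 1 library per group. No difference could therefore be tested against the variation between mice, every interval below is a 95% interval that covers counting error only, and the effects of the vector and of Isl1 cannot be told apart.

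Interferons are secreted proteins, and those of type I are released when a cell senses viral nucleic acid. Type I interferons act through the receptor chains Ifnar1 and Ifnar2 and lead to transcription from the interferon-stimulated response element (ISRE), while interferon gamma acts mainly through the gamma-activated site (GAS). The induced effectors block virus entry (IFITM proteins), bind viral RNA (IFIT proteins, OAS enzymes), modify proteins (Isg15) or attack vacuoles of pathogens (guanylate-binding proteins and immunity-related GTPases).

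RefSeq promoter windows (GRCm38.p6, 250 bases before to 50 after the transcription start) were found for 31 of the 40 genes. The ISRE core, searched on both strands as GAAA, any 2 bases and GAAA again, was in the window of 17 of the 31 (54.8%), against 3.99% of 27025 genes with a window of the same length. GAS, searched as TTCNNNGAA (its own reverse complement), was in 10 (32.3%) against 9.55%. Both motifs were in 6 (19.4%) against 0.614%. The GAS and ISRE letters can overlap, and a match is a description of letters, not a bound site. The 250 bases before the start are shown for 5 genes that were higher in the clusters described below, with the ISRE core in capitals. They are Ifit1 (chr19:34640639-34640888, plus strand), Ifit3 (chr19:34583279-34583528, plus strand), Isg15 (chr4:156200819-156201068, minus strand), Rsad2 (chr12:26456453-26456702, minus strand) and Gbp7 (chr3:142530086-142530335, plus strand), each written 5′ to 3′ on the gene's strand.
Ifit1: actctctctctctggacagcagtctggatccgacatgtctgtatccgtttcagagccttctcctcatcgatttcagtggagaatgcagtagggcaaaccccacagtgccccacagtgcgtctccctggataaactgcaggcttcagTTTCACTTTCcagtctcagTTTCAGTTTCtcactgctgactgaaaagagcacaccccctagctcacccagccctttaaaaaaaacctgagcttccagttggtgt
Ifit3: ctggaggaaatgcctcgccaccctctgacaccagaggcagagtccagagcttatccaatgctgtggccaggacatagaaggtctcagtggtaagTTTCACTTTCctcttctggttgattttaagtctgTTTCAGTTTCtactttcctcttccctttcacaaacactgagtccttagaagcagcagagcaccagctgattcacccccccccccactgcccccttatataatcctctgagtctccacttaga
Isg15: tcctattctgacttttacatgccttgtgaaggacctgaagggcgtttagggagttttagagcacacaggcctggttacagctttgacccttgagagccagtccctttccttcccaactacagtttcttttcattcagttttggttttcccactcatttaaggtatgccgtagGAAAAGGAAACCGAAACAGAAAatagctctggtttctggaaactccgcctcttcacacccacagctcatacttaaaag
Rsad2: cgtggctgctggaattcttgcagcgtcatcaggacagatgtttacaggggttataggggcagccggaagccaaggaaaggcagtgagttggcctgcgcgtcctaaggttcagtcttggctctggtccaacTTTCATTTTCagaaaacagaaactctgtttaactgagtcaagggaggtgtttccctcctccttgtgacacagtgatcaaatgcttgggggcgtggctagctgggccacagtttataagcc
Gbp7: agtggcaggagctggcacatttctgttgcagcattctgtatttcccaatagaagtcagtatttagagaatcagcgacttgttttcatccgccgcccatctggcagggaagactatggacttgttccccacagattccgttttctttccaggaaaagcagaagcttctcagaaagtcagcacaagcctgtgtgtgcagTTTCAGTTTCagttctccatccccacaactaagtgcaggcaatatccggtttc
The Ifit1 and Ifit3 windows each held 2 separate copies of the core, Isg15 held 3 overlapping copies, and Rsad2 and Gbp7 held 1 copy.

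There were 21068 noise-only barcodes with 38330528 UMIs and 24209 AAV-Isl1 barcodes with 40268563, of which 18757 and 21846 were kept (called cells here), with medians of 1048 and 1087 UMIs. Both numbers lie far above the about 1600 cells loaded per the labels, and 145 barcodes were found in both libraries. The labels name sensory epithelium, but hair cell-like cells were 92 and 325 of the kept cells. The rest included strial, glial, neuronal, connective tissue, vascular and blood cells. Cells were clustered together, with the 40 genes and their pathway genes left out of the clustering. Classes named from markers are called X-like, and clusters with no such name are called by their leading gene. There were 24 classes or clusters with at least 50 cells in each library. Levels are given in CPM (UMIs per 1000000 UMIs of the class), folds divide the AAV-Isl1 level by the noise-only level, and a gene counted as measured in a class with at least 20 UMIs over both libraries. Free RNA from lysed cells was not measured. Erythroid-like cells are given for comparison, although Isg20 and Ube2l6 had their highest noise-only level there. The summed level of the 39 genes in erythroid-like cells was 3365 CPM in the noise-only and 3575 CPM in the AAV-Isl1 library. This class joined a cluster at 3805 and 3995 CPM (225 and 805 cells) and a smaller cluster at 464 and 1090 CPM (8 and 54 cells).

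Over all kept cells the summed level of the 39 genes was nearly the same, at 5424 and 5166 CPM, a ratio of 0.952 (0.946 to 0.958). Of the 39, 3 were at least 1.5-fold higher (7.65% of all genes were), and 0 were at least 1.5-fold lower (3.62%). The median log2 ratio of the 39 was 0.02, and that of all genes was -0.02. The 3 genes were Isg20, an exonuclease that degrades RNA, at 8.33 and 19.7 CPM (2.37-fold, 2.06 to 2.73), Ifi47, an immunity-related GTPase, at 11.1 and 17.7 CPM (1.59-fold, 1.40 to 1.81), and Gbp2, a guanylate-binding protein, at 13.4 and 20.3 CPM (1.52-fold, 1.35 to 1.71). Erythroid-like cells held 51 of the 280 noise-only and 401 of the 718 AAV-Isl1 UMIs of Isg20, at 77.9 and 212 CPM, and were 1.24% and 3.93% of the kept cells. Shares of the classes differed too, with Schwann or satellite glia-like cells at 34.8% and 19.9% of cells and neuron-like cells at 4.26% and 6.90%, so the level over all cells mixes class shares with levels within classes. The interval of the summed ratio lay above 1 in 17 of the 24 classes and clusters and below 1 in 4.

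**Figure D1:**
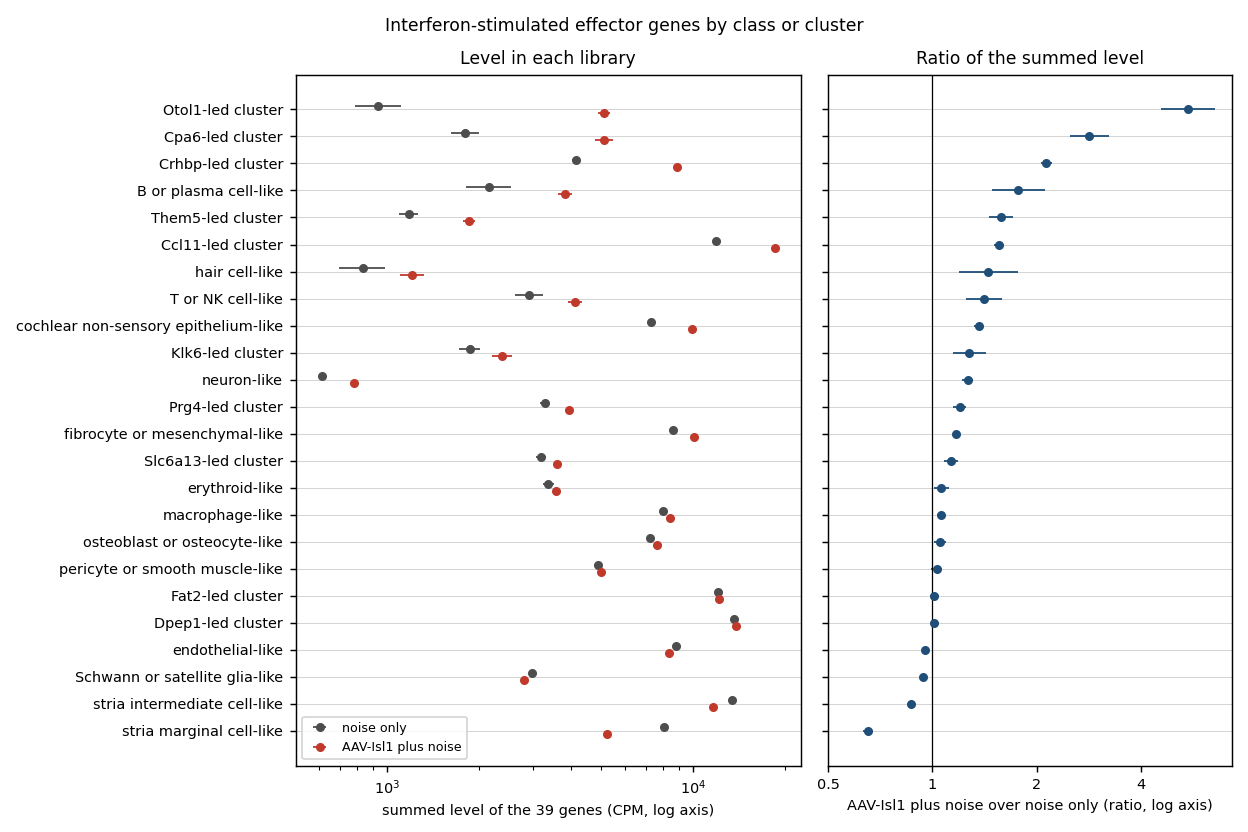
Left, summed level of the 39 genes in CPM (log axis) in each class or cluster of the noise-only (grey) and AAV-Isl1 plus noise (red) libraries, and right, the ratio of the 2 levels (log axis), with lines for 95% counting intervals. The Otol1-led cluster is highest in ratio at 5.45, and stria marginal cell-like cells are lowest at 0.653.

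In noise-only cells, the baseline was high in stria intermediate cell-like cells and several clusters without a class name, and low in neuron-like and hair cell-like cells. The summed level was highest in the Dpep1-led cluster (13655 CPM), stria intermediate cell-like cells (13437 CPM), the Fat2-led cluster (12035 CPM) and the Ccl11-led cluster (11925 CPM). It was lowest in neuron-like cells (616 CPM), hair cell-like cells (833 CPM) and the Otol1-led cluster (938 CPM). A few genes made up most of it. Ifi27l2a, a small mitochondrial protein gene of the IFI27 family, had 52093 of the 182398 noise-only UMIs of the 39 genes, and stood at 8006 CPM in stria intermediate cell-like cells, 5190 CPM in the Fat2-led cluster and 4860 CPM in stria marginal cell-like cells. Ifitm3, which blocks fusion of enveloped viruses, had 39321 UMIs and was highest in the Dpep1-led cluster at 4815 CPM. Ifitm1, of the same family, was highest in the Ccl11-led cluster at 2235 CPM, followed by 719 CPM in the Fat2-led cluster. Bst2, which tethers budding virions, was highest in cochlear non-sensory epithelium-like cells at 992 CPM, and Irf1, a transcription factor of the interferon gamma response, in osteoblast or osteocyte-like cells at 750 CPM. Endothelial-like cells had the highest noise-only level of 13 genes: Ifit2, Ly6e, Ifih1, Rsad2, Cmpk2, Ifi47, Igtp, Gbp2, Gbp3, Gbp7, Parp14, Ifi35 and Ifi44.

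The Otol1-led cluster (71 noise-only and 193 AAV-Isl1 cells, led by Otol1, Tectb and Otog, which encode proteins of the otoconial and tectorial membranes) differed most. Its summed level was 938 CPM in the noise-only library, below the 3365 CPM of erythroid-like cells, and 5114 CPM in the AAV-Isl1 library, above their 3575 CPM. The ratio was 5.45 (4.58 to 6.54). Of the 39 genes, 12 were measured, and 11 of these were at least 1.5-fold higher (13.4% of all genes were). Ifi27l2a made up 48.8% of the difference, at 192 and 2230 CPM (11.6-fold, 7.99 to 17.6), and without it the summed ratio was 3.87 (3.17 to 4.75). Ifitm3 had 75.3 and 544 CPM (7.22-fold, 3.95 to 14.7), Ifi27, the other IFI27 family gene, 240 and 982 CPM (4.10-fold, 2.89 to 5.98), and Bst2 89.0 and 238 CPM (2.68-fold, 1.49 to 5.24). All 4 of these abundant genes were higher. The IFIT genes were nearly absent from the noise-only cells. Ifit1, which binds viral RNA caps, had 0 and 30 UMIs, at least 4.05-fold higher against the 3 UMIs that a count of 0 allows, and Lgals3bp, a secreted glycoprotein gene, had 0 and 28 UMIs, at least 3.78-fold higher. Ifit3, a partner of Ifit1, had 1 and 23 UMIs (9.32-fold, 1.51 to 384) and Oasl2, an OAS-like protein gene, 2 and 33 UMIs (6.69-fold, 1.71 to 57.5). The directions of these last 2 rest on few cells. The log2 ratio of Ifit3 was -0.45 with no doublets removed, -0.53 with the genes kept in the clustering and -0.22 with cells thinned to 1000 UMIs, and that of Oasl2 was -0.31 with the genes kept in the clustering. A gene measured only through the library where it is high had to differ, so these counts of genes are a description.

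The Cpa6-led cluster (134 and 177 cells) had 1801 and 5116 CPM for the 39 genes, a ratio of 2.84 (2.50 to 3.23), and it crossed the erythroid-like level in the same way. Of 13 measured genes, 11 were at least 1.5-fold higher (15.3% of all genes were). Ifi27l2a stood at 379 and 1462 CPM (3.86-fold, 2.95 to 5.09), Ifi27 at 305 and 850 CPM (2.78-fold, 2.03 to 3.85) and Ifitm3 at 163 and 522 CPM (interval of the ratio 2.10 to 4.99). Bst2 had 253 and 303 CPM, with an interval of the ratio that included 1 (0.791 to 1.82). Irgm1, an immunity-related GTPase of autophagy, had 100 and 382 CPM (3.82-fold, 2.26 to 6.76), the highest level of Irgm1 in any class of the AAV-Isl1 library. Ifit1 had 15.8 and 170 CPM (3 and 28 UMIs, 10.8-fold, 3.32 to 55.3), and Irf1 had 15.8 and 146 CPM (9.22-fold, 2.80 to 47.8). Ifit3 had 0 and 17 UMIs, at least 6.53-fold higher, and was below the 20 UMIs set for a measured gene. With each cell thinned to 1000 UMIs, 5 of 6 measured genes in place of 11 of 13 were at least 1.5-fold higher.

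The Crhbp-led cluster (399 and 522 cells, led by Crhbp and Vmo1) had many more UMIs, and differences were spread over most roles. The summed level was 4152 CPM in the noise-only and 8847 CPM in the AAV-Isl1 library, a ratio of 2.13 (2.06 to 2.21). Of 31 measured genes, 26 were at least 1.5-fold higher (12.0% of all genes were), and the median log2 ratio was 1.51, against 0.01 for all genes. Of the 5 membrane restriction factor genes, 4 were at least 1.5-fold higher (12.0% of all genes were). Bst2, which was among the genes with the most UMIs, was 1 of these 4, and Ifitm2 was not. Several abundant genes had smaller ratios. Ifi27l2a had 1464 and 2857 CPM (1.95-fold, 1.84 to 2.08), Ifitm3 781 and 1393 CPM (1.78-fold, 1.64 to 1.94), Ifi27 644 and 861 CPM (1.34-fold, 1.21 to 1.48) and Ifitm2 293 and 321 CPM (1.09-fold, 0.937 to 1.28). Several less abundant genes had larger ratios, but a gene with few noise-only UMIs reached the 20 UMIs only if it was high in the AAV-Isl1 library. Ifit1 had 60.2 and 435 CPM (7.23-fold, 5.54 to 9.57), Ifit3 39.8 and 347 CPM (8.71-fold, 6.30 to 12.3), and Ly6e, a membrane protein that limits entry of some viruses, 17.5 and 134 CPM (7.65-fold, 4.68 to 13.3). GTPase genes stood out in size: Irgm1 had 38.8 and 299 CPM (7.69-fold, 5.53 to 11.0), Igtp 7.77 and 58.8 CPM (7.57-fold, 3.63 to 18.3), Gbp7 3 and 56 UMIs (17.1-fold, 5.57 to 85.6) and Gbp2 1 and 20 UMIs (18.4-fold, 2.94 to 761). Rsad2, the antiviral enzyme viperin, had 2 and 31 UMIs (14.2-fold, 3.62 to 123), and Irf1 had 61.2 and 338 CPM (5.52-fold, 4.22 to 7.33). Ifit2 was the exception among the IFIT genes, with 29 and 22 UMIs and a ratio of 0.697 (0.381 to 1.26).

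The Ccl11-led cluster (382 and 315 cells) had the highest level of any class in the AAV-Isl1 library, 18573 CPM, against 11925 CPM in the noise-only library (ratio 1.56, 1.51 to 1.61). Of 36 measured genes, 29 were at least 1.5-fold higher (11.3% of all genes were), with a median log2 ratio of 1.53, against 0.00 for all genes. The modest ratio of the sum came from abundant genes that differed little. Ifitm3 had 3189 and 4640 CPM (1.46-fold, 1.37 to 1.55), Ifitm1 2235 and 2370 CPM (1.06-fold, 0.980 to 1.15), Ifi27l2a 1778 and 1862 CPM (1.05-fold, 0.958 to 1.14) and Ifitm2 1048 and 1013 CPM (0.966-fold, 0.858 to 1.09). Intervals of the last 3 ratios included 1. All 4 IFIT genes, all 3 genes of the ISG15 system and all 6 GTPase genes with a row were at least 1.5-fold higher. Ifit1 had 248 and 976 CPM (3.93-fold, 3.29 to 4.71), Ifit3 159 and 689 CPM (4.33-fold, 3.48 to 5.42) and Ifit3b 33.5 and 222 CPM (6.63-fold, 4.21 to 10.8). Isg15, a ubiquitin-like modifier, had 276 and 820 CPM (2.97-fold, 2.49 to 3.55), Usp18, which removes it, 19.5 and 86.1 CPM (4.41-fold, 2.33 to 8.80), and Ube2l6, the conjugating enzyme, 33.5 and 97.4 CPM (2.91-fold, 1.73 to 5.01). Rsad2 had 36.3 and 279 CPM (7.68-fold, 5.00 to 12.2), Gbp7 16.7 and 122 CPM (7.31-fold, 3.86 to 15.0) and Ifi44 3 and 18 UMIs (9.74-fold, 2.84 to 51.6).

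**Figure D2:**
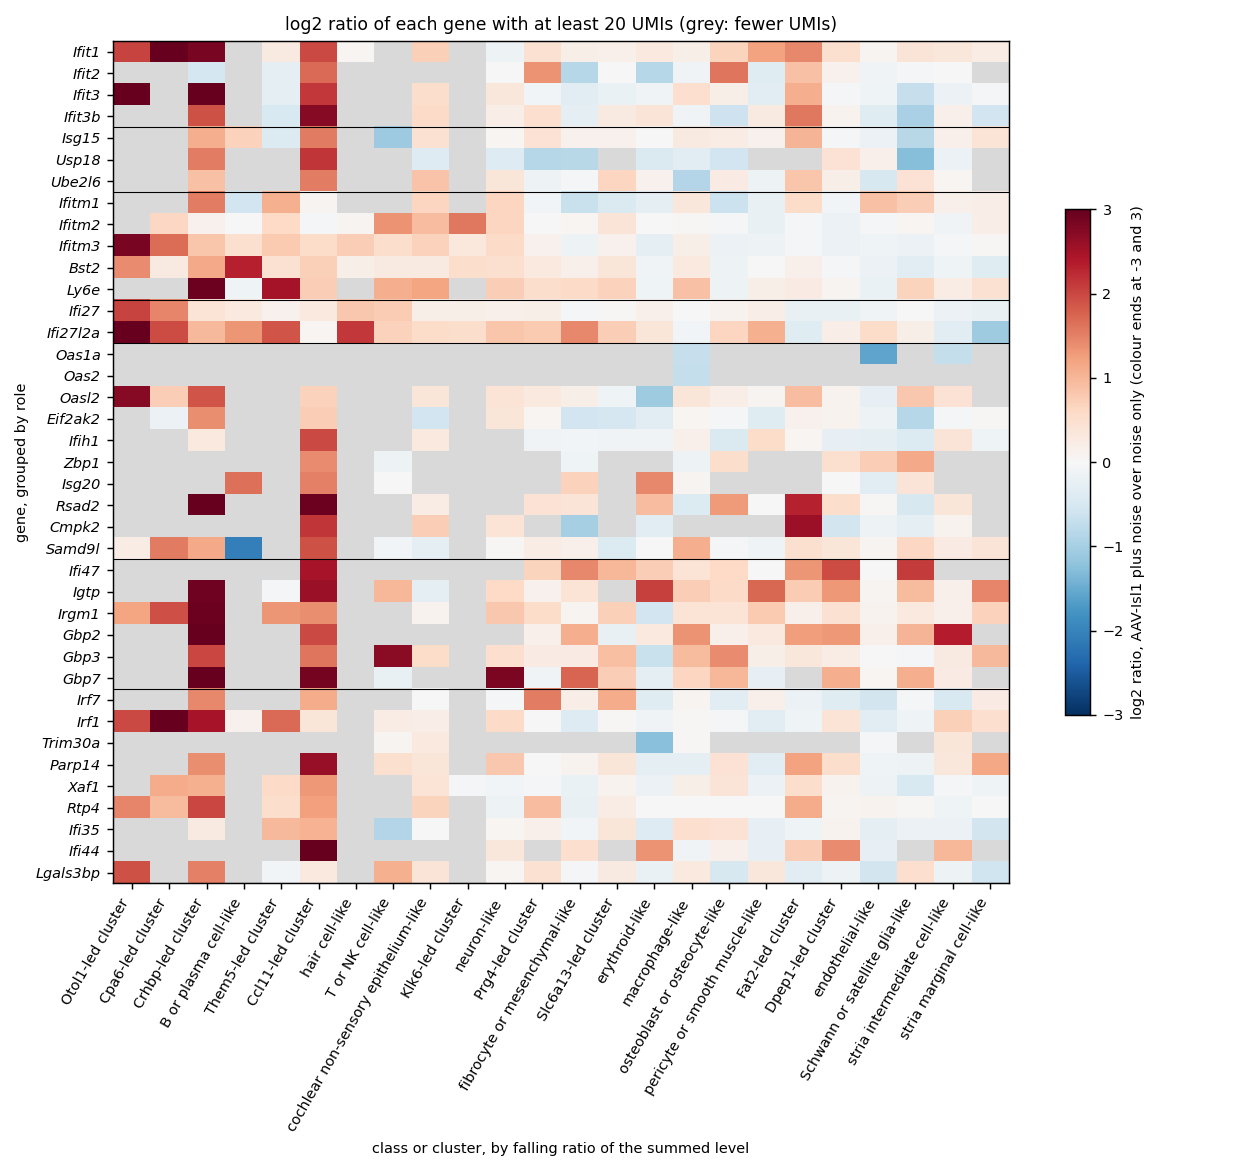
Log2 ratio (AAV-Isl1 plus noise over noise only) of each of the 39 genes, in rows grouped by role, in each class or cluster, in columns by falling ratio of the summed level, with grey for under 20 UMIs. Red is spread over nearly all measured genes of the Crhbp-led and Ccl11-led clusters, 26 of 31 and 29 of 36 at least 1.5-fold higher. In the Otol1-led column all 12 measured genes have a ratio (before the log2) above 1. A gene could count as measured through the AAV-Isl1 library alone.

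Among the sensory and supporting classes, cochlear non-sensory epithelium-like cells (765 and 536 cells) had 7306 and 9927 CPM, a ratio of 1.36 (1.32 to 1.40). Here 8 of 30 measured genes were at least 1.5-fold higher (12.9% of all genes were), and 0 were lower by that fold (7.73%). Ifi27l2a made up 53.0% of the difference, at 2958 and 4348 CPM (1.47-fold, 1.40 to 1.54). Ly6e had 40.7 and 92.3 CPM (2.27-fold, 1.55 to 3.34), Ifitm2 68.6 and 130 CPM (1.89-fold, 1.39 to 2.57) and Ifit1 145 and 238 CPM (1.64-fold, 1.32 to 2.03). The 4 clusters of the class had ratios of 1.59, 1.34, 1.56 and 1.11, all with intervals above 1. The count of 8 was 22 with a stricter cell filter (500 or more genes, no more than 10% of UMIs from mitochondria).

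Hair cell-like cells had 833 and 1207 CPM for the 39 genes (ratio 1.45, 1.19 to 1.77), which is 0.248 and 0.338 of the erythroid-like level. The smaller erythroid-like cluster (8 and 54 cells) lay below hair cell-like cells in each library, at 464 and 1090 CPM. Expression and free RNA cannot be told apart at the level of hair cell-like cells. Of 6 measured genes, 3 were at least 1.5-fold higher (14.0% of all genes were), and 0 of the 6 exceeded the erythroid-like level in the AAV-Isl1 library. Ifi27l2a had 91.9 and 399 CPM (4.34-fold, 2.55 to 7.95) and made up 82.1% of the difference, and without it the ratio was 1.09 (0.881 to 1.36). Without the 5 cells of each library with the most UMIs of the 39 genes, the log2 ratio of the sum was 1.22 in place of 0.54. Neuron-like cells had 616 and 778 CPM, 0.183 and 0.218 of the erythroid-like level, and 8 of 30 measured genes were at least 1.5-fold higher (6.85% of all genes were). Their Gbp7 had 3 and 27 UMIs (7.09-fold, 2.18 to 36.5). In thinned cells it was seen in 0 of 780 and 4 of 1462 cells. The log2 ratio of -0.49 there rests on a count of 0 set to 3 and gives no direction.

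Summed levels were lower in 4 classes. Stria marginal cell-like cells, which secrete potassium into the endolymph (395 and 534 cells), had 8037 and 5244 CPM, a ratio of 0.653 (0.631 to 0.675). Ifi27l2a had 4860 and 2326 CPM (0.479-fold, 0.456 to 0.502) and made up 90.7% of the difference, and without it the ratio was 0.918 (0.874 to 0.965). In the same cells 4 of 24 measured genes were at least 1.5-fold higher (11.2% of all genes were) and 2 lower (5.67%), and the median log2 ratio was 0.11. Stria intermediate cell-like cells, the melanocyte-derived cells of the stria, had 13437 and 11626 CPM (ratio 0.865, 0.852 to 0.879), with Ifi27l2a at 8006 and 6422 CPM for 87.4% of the difference. Gbp2 was opposite there, with 4 and 23 UMIs (5.13-fold, 1.75 to 20.4), and 3 of 35 measured genes were at least 1.5-fold higher (9.01% of all genes were) and 1 lower (3.36%).

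Schwann or satellite glia-like cells (6524 and 4345 cells) had 2981 and 2808 CPM, a ratio of 0.942 (0.918 to 0.967). Here 9 of 35 measured genes were at least 1.5-fold higher (7.60% of all genes were) and 5 lower (3.38%). The lower genes were Isg15, at 224 and 126 CPM (0.563-fold, 0.502 to 0.631), Usp18, at 30.5 and 12.6 CPM (0.412-fold, 0.285 to 0.584), Ifit3, at 106 and 65.0 CPM (0.616-fold, 0.523 to 0.723), Ifit3b, at 39.5 and 20.2 CPM (0.512-fold, 0.382 to 0.678), and Eif2ak2, the RNA-activated kinase PKR, at 18.8 and 10.4 CPM (0.554-fold, 0.364 to 0.826). GTPase genes were higher in the same cells: Ifi47 had 10 and 27 UMIs (4.31-fold, 2.02 to 9.99), Gbp7 45 and 60 UMIs (2.13-fold, 1.42 to 3.21) and Gbp2 47 and 60 UMIs (2.04-fold, 1.37 to 3.05). A Fabp7-led cluster of the class (257 and 95 cells) had 10902 and 7196 CPM (ratio 0.660, 0.597 to 0.729), while the ratios of the other 2 clusters were 1.04 and 0.977. Without the Fabp7-led cluster the log2 ratio of the class turned from -0.09 to 0.02. Endothelial-like cells, the class with the highest baseline of many of the genes, had 8805 and 8383 CPM (ratio 0.952, 0.930 to 0.974). Of their 38 measured genes, 2 were at least 1.5-fold higher (9.50% of all genes were) and 1 lower (6.03%), with Ifitm1 at 27.8 and 51.1 CPM (1.84-fold, 1.28 to 2.65). The lower gene was Oas1a, with a log2 ratio of -1.58.

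The Fat2-led cluster (273 and 346 cells) had 12035 and 12187 CPM, a ratio of 1.01 (0.984 to 1.04), yet 15 of 32 measured genes were at least 1.5-fold higher (10.7% of all genes were). Ifi27l2a stood at 5190 and 4064 CPM (0.783-fold, 0.747 to 0.821), while the IFIT genes together stood at 407 and 1013 CPM (2.49-fold, 2.19 to 2.83). Cmpk2, a mitochondrial nucleotide kinase gene that lies beside Rsad2, had 5 and 25 UMIs (5.95-fold, 2.24 to 19.9), and Rsad2 itself 15 and 62 UMIs (4.92-fold, 2.77 to 9.31). Fibrocyte or mesenchymal-like cells had 8609 and 10094 CPM (ratio 1.17, 1.15 to 1.20), with 5 of 36 measured genes at least 1.5-fold higher (10.2% of all genes were) and 5 lower (10.4%), both near the share of all genes. At a clustering resolution of 0.5 the log2 ratio of the sum was -0.019. Ifi27l2a had 1100 and 2974 CPM there (2.70-fold, 2.58 to 2.83), and without it the ratio was 0.948 (0.928 to 0.969). Most noise-only cells of that class, 945, lay in an Emilin2-led cluster with a ratio of 1.53, and most AAV-Isl1 cells, 1037, in an Slc4a11-led cluster with a ratio of 1.01.

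Summed ratios in the remaining classes and clusters were 1.77 (1.49 to 2.12) in B or plasma cell-like cells, 1.58 (1.45 to 1.71) in the Them5-led cluster, 1.41 (1.25 to 1.59) in T or NK cell-like cells, 1.28 (1.14 to 1.43) in the Klk6-led cluster, 1.20 (1.15 to 1.25) in the Prg4-led cluster and 1.13 (1.08 to 1.18) in the Slc6a13-led cluster. Macrophage-like cells had 7973 and 8447 CPM (1.06, 1.03 to 1.09), osteoblast or osteocyte-like cells 7267 and 7658 CPM (1.05, 1.01 to 1.10), pericyte or smooth muscle-like cells 4880 and 5017 CPM (1.03, 0.991 to 1.07) and the Dpep1-led cluster 13655 and 13812 CPM (1.01, 0.990 to 1.03). Clusters of the pericyte or smooth muscle-like class went opposite ways. The Rgs5-led cluster had 8007 and 6861 CPM (0.857, 0.820 to 0.896) and the Acta2-led cluster 2436 and 3217 CPM (1.32, 1.23 to 1.41). Genes at least 1.5-fold higher were 4 of 11 measured genes (20.4% of all genes) in B or plasma cell-like cells, 7 of 18 measured genes (19.9% of all genes) in T or NK cell-like cells, 8 of 19 measured genes (9.98% of all genes) in the Them5-led, 1 of 6 measured genes (9.85% of all genes) in the Klk6-led, 5 of 32 measured genes (7.92% of all genes) in the Prg4-led and 8 of 29 measured genes (14.7% of all genes) in the Slc6a13-led cluster. They were 6 of 38 measured genes (11.6% of all genes) in macrophage-like, 7 of 34 measured genes (12.5% of all genes) in osteoblast or osteocyte-like, 4 of 32 measured genes (10.8% of all genes) in pericyte or smooth muscle-like and 5 of 36 measured genes (17.6% of all genes) in erythroid-like cells, and 5 of 36 measured genes (10.2% of all genes) in the Dpep1-led cluster. Genes lower by that fold were 1 (27.3% of all genes), 2 (12.7%), 1 (6.33%), 3 (7.04%), 2 (9.56%) and 4 (12.6%) in B or plasma cell-like, T or NK cell-like, Prg4-led, macrophage-like, osteoblast or osteocyte-like and erythroid-like cells, so several of these counts lie near the share of all genes. Even in the Dpep1-led cluster, GTPase genes were higher, with Ifi47 at 24.6 and 95.4 CPM (3.88-fold, 2.62 to 5.86) and Igtp at 28.1 and 69.0 CPM (2.46-fold, 1.65 to 3.70). Macrophage-like cells, which are immune cells with a high baseline, had Gbp2 at 17.5 and 44.8 CPM (2.56-fold, 1.51 to 4.51). The lower genes of these cells were Ube2l6 (0.548-fold), Oas2 (0.607-fold) and Oas1a (0.622-fold). Few UMIs limited 3 of the 39 genes: Oas2 was measured in 1 class, Oas1a in 3 and Trim30a in 6.

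By role, the summed ratio of the interferon-inducible GTPases was above 1 in 23 of 24 classes and clusters, with the interval above 1 in 17, and had a median of 1.68 and a range from 0.928 in erythroid-like cells to 8.01 in the Crhbp-led cluster. Over all cells they stood at 138 and 177 CPM (1.28-fold, 1.23 to 1.33). Ifi47 was above 1 in 12 of the 12 classes where it was measured, Irgm1 in 19 of 20 and Igtp in 16 of 18. Gbp2 was above 1 in 13 of 14, Gbp3 in 16 of 18 and Gbp7 in 11 of 15. The share of all genes above 1 is not given here, and genes with few UMIs could be measured through the AAV-Isl1 library alone. The IFI27 family was above 1 in 20 of 24 classes, all 20 with the interval above 1, with a median ratio of 1.35, and ranged from 0.571 in stria marginal cell-like cells to 7.45 in the Otol1-led cluster. IFIT genes had the widest range, from 0.593 to 24.7, the latter in the Otol1-led cluster from 1 and 61 UMIs (4.27 to 992), and a median of 1.19. The ISG15 system had a median of 1.08 and was 3.05 in the Ccl11-led cluster and 0.560 in Schwann or satellite glia-like cells. Membrane restriction factors had a median of 1.12, RNA and nucleotide effectors 1.13, and regulators and other effectors 1.08.

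**Figure D3:**
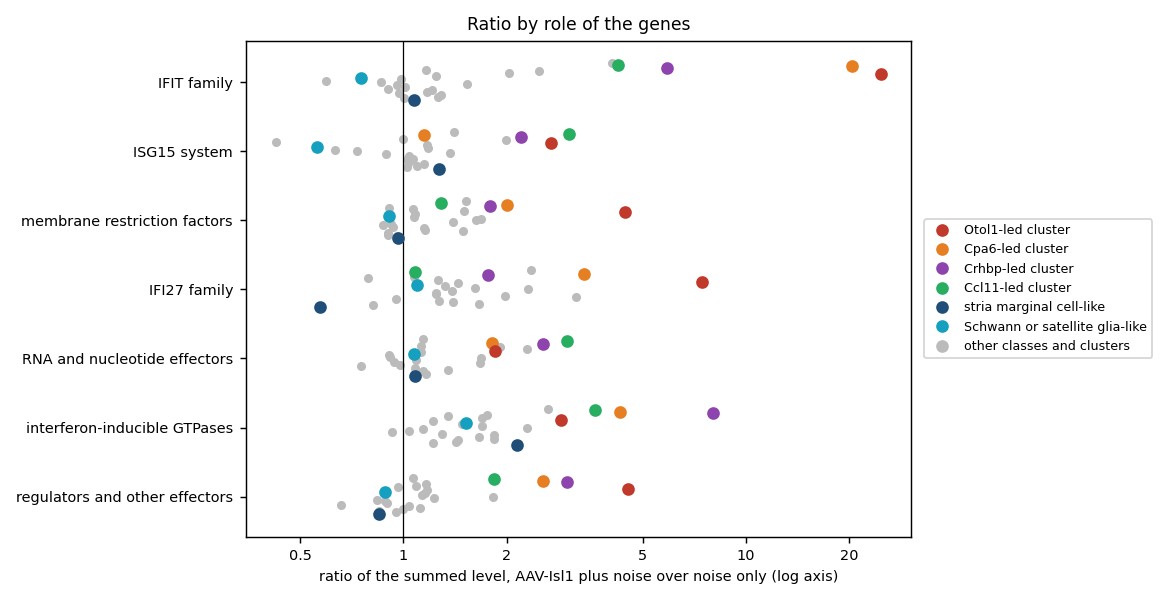
Ratio of the summed level of each role (log axis, AAV-Isl1 plus noise over noise only), 1 point per class or cluster, with 6 classes in colour and the others in grey, without intervals. GTPase points lie right of 1 in 23 of 24 classes, and the highest role is the IFIT family in the Otol1-led, Cpa6-led and Ccl11-led clusters (24.7, 20.4 and 4.23) and the GTPases in the Crhbp-led cluster (8.01).

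The spread over single cells was measured after each cell was thinned to 1000 UMIs, with shallower cells left out (36 and 71 in the Otol1-led, 67 and 128 in the Cpa6-led, 32 and 71 in the Crhbp-led and 57 and 108 in the Ccl11-led cluster). Cells of the Otol1-led cluster with at least 3 UMIs of the 39 genes were 2 of 35 (5.71%, 0.700 to 19.2) in the noise-only and 78 of 122 (63.9%, 54.7 to 72.4) in the AAV-Isl1 library. In erythroid-like cells at the same depth they were 46.7% and 46.6%, above the noise-only and below the AAV-Isl1 share. The mean in the Otol1-led cluster went from 0.829 to 4.83 UMIs per cell, and the variance over the mean from 0.957 to 4.55. Cells with none of the 39 genes nevertheless remained in the AAV-Isl1 library, since 105 of 122 (86.1%) had at least 1 UMI, against 20 of 35 (57.1%). Without thinning these shares were 88.6% and 67.6%. In the Cpa6-led cluster the share with at least 3 UMIs was 31.3% and 67.3%. In the Crhbp-led cluster the share with at least 5 UMIs was 26.7% (22.2 to 31.5) and 68.3% (63.8 to 72.6), with 25.7% and 27.1% in erythroid-like cells. In the Ccl11-led cluster the share with at least 10 UMIs was 51.1% (45.5 to 56.6) and 82.6% (76.7 to 87.5), with 8.57% and 7.75% in erythroid-like cells. The lower and the upper ends of the distributions both differed between libraries.

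**Figure D4:**
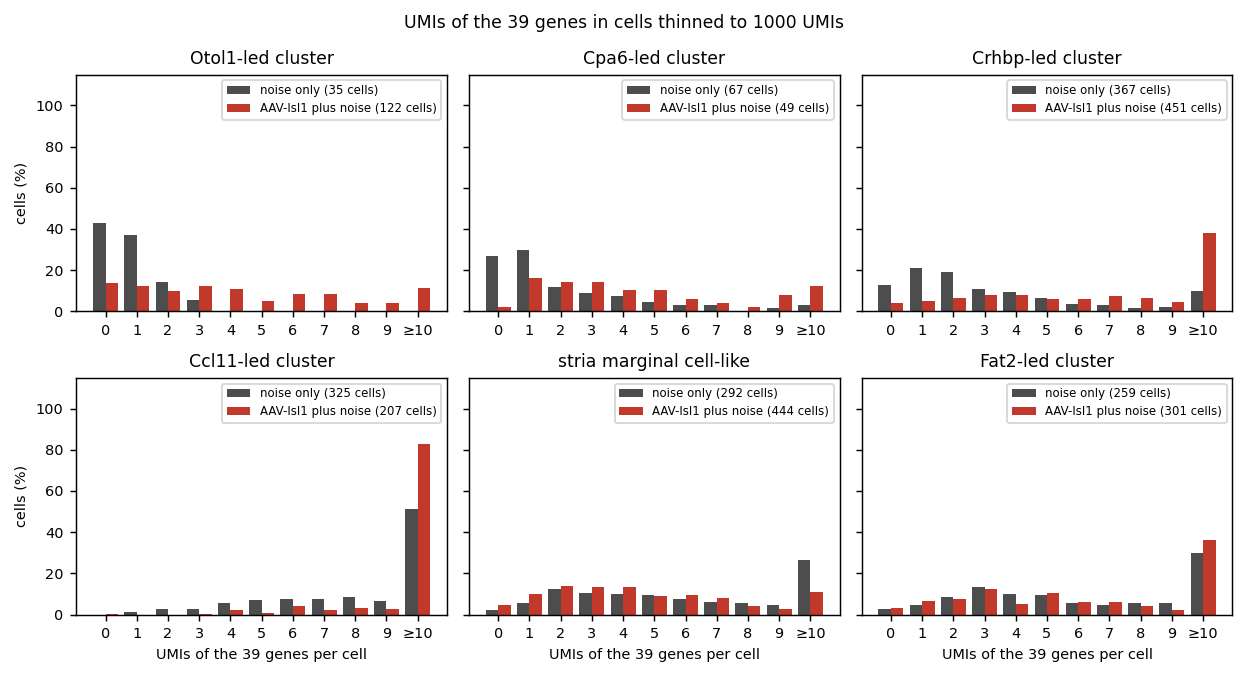
Share of cells (%) by the number of UMIs of the 39 genes in cells thinned to 1000 UMIs, for 6 classes or clusters, with noise-only in grey and AAV-Isl1 plus noise in red, and the last bar for 10 or more. The Ccl11-led cluster has 51.1% and 82.6% of cells in the last bar, and stria marginal cell-like cells 26.4% and 11.0%.

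Single genes showed the same in cell counts. A UMI of Ifit1 was seen in 3.54% and 22.6% of thinned cells of the Crhbp-led cluster and in 20.9% and 42.5% of the Ccl11-led cluster, against 3.81% and 4.84% of erythroid-like cells. Ifi27l2a was seen in 8.57% and 63.9% of thinned cells of the Otol1-led cluster, against 28.6% and 37.3% of erythroid-like cells. Detection was partial even for the genes with the largest ratios, and Gbp7 was seen in 0.272% and 3.99% of thinned cells of the Crhbp-led cluster. In stria marginal cell-like cells the share with at least 10 UMIs was 26.4% and 11.0%, and the variance over the mean 7.11 and 3.81. In Schwann or satellite glia-like cells the variance over the mean was 5.50 and 2.88, in the 1120 and 627 cells deep enough to be thinned (5404 and 3718 were left out). The Fabp7-led cluster, which had the highest level of that class, held 257 and 95 of its cells. The variance over the mean was highest in the Fat2-led cluster of both libraries, at 17.6 and 14.5. There, cells with a UMI of an IFIT or ISG15-system gene had 25.2 and 19.2 UMIs of the other genes per cell, and cells without such a UMI had 6.52 and 6.51. The share of cells with an IFIT or ISG15-system UMI was 12.3% and 39.2% in the Crhbp-led cluster and 46.5% and 69.1% in the Ccl11-led cluster. In the Crhbp-led cluster, cells without one had 3.11 UMIs of the other genes in the noise-only and 6.24 in the AAV-Isl1 library.

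Within the AAV-Isl1 library, cells with an Isl1 UMI did not have a higher level of the 39 genes than cells without one in these clusters beyond counting error. The levels were 4707 and 5459 CPM in the Otol1-led cluster (58 and 135 cells, ratio with over without 0.862, 0.785 to 0.947), 5129 and 5123 CPM in the Cpa6-led cluster (1.00, 0.866 to 1.16) and 9100 and 8796 CPM in the Crhbp-led cluster (1.03, 0.982 to 1.09). An Isl1 UMI was seen in 7 of the 315 AAV-Isl1 cells of the Ccl11-led cluster. Cells with an Isl1 UMI were deeper, with medians of 2331 and 1080 UMIs in the Otol1-led cluster. Cells of 1 library are not replicates, a cell without an Isl1 UMI may still hold Isl1 RNA, and whether RNA from the vector maps to Isl1 is not given in the sources used here.

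Other genes of the pathway were described from lists of genes outside the 40. Of 67 further interferon-stimulated genes measured over all cells, 14 were at least 1.5-fold higher (7.65% of all genes were) and 1 lower (3.62%). Those with the most UMIs were Tor1aip1, at 84.0 and 78.2 CPM (0.931-fold, 0.884 to 0.981), and Ifi30, at 77.1 and 72.1 CPM (0.935-fold, 0.885 to 0.988). Among the 14 were Iigp1, at 56.0 and 87.0 CPM (1.55-fold, 1.47 to 1.65), and Cxcl10, at 33.7 and 65.8 CPM (1.95-fold, 1.82 to 2.10). In the Ccl11-led cluster 25 of 34 were at least 1.5-fold higher (11.3% of all genes were) and in the Crhbp-led cluster 21 of 33 (12.0%), with summed ratios of 2.51 (2.34 to 2.69) and 2.28 (2.11 to 2.48). Genes of MHC class I and antigen processing had a summed ratio of 1.36 (1.35 to 1.38) over all cells, led by B2m (beta-2 microglobulin) at 402 and 561 CPM (1.40-fold, 1.37 to 1.43) and H2-D1, a heavy chain, at 305 and 462 CPM (1.51-fold, 1.47 to 1.55). At least 1.5-fold higher were 7 of 8 measured MHC class I genes in the Otol1-led cluster (13.4% of all genes were), 12 of 14 in the Ccl11-led cluster (11.3%), and 0 of 14 in endothelial-like cells (9.50%). The MHC class I ratio in Schwann or satellite glia-like cells was 1.94 (1.87 to 2.01), while the summed ratio of the 39 genes there was 0.942.

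Markers of other cell types also differed between the libraries in these clusters. The summed level of 13 neutrophil markers was 20.5 and 77.7 CPM in the Otol1-led cluster, 15.8 and 200 CPM in the Cpa6-led cluster, 82.5 and 253 CPM in the Crhbp-led cluster and 8.37 and 145 CPM in the Ccl11-led cluster. Of the 13, 11 and 7, 11 and 8, 8 and 7, and 10 and 7 were at 0 in the same order, with Ly6g and Mpo at 0 in both libraries of all 4. That of 12 macrophage markers was 0 and 27.7, 36.9 and 127, 19.4 and 49.0, and 16.7 and 74.8 CPM in the same order, and 12 and 8, 6 and 7, 5 and 6, and 6 and 3 of the 12 were at 0, with Adgre1 at 0 in both libraries of all 4. T or NK cell markers stood at 0 and 11.1 CPM in the Otol1-led, 0 and 66.8 CPM in the Cpa6-led and 0 and 4.46 CPM in the Crhbp-led cluster, and were lower, at 11.2 and 6.80 CPM, in the Ccl11-led cluster. The B or plasma cell list stood at 1596 and 4327 CPM in the Cpa6-led cluster, with 11 and 3 of its 12 markers at 0, so the noise-only level came from 1 gene. In the Crhbp-led cluster the erythroid list stood at 3148 and 3173 CPM. In hair cell-like cells, neutrophil markers stood at 12.3 and 1087 CPM (11 and 4 of the 13 at 0). Erythroid markers stood there at 73.5 and 605 CPM and macrophage markers at 18.4 and 67.8 CPM. The T or NK cell (49.0 and 39.1 CPM) and B or plasma cell lists (845 and 782 CPM) were lower. In cochlear non-sensory epithelium-like cells, neutrophil markers stood at 14.4 and 259 CPM and T or NK cell markers at 0.798 and 50.5 CPM. The part of cells of other types, or of their free RNA, in the higher levels of the 39 genes was not tested.

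Genes with and without the ISRE core in the promoter window had overlapping ratios. In the Crhbp-led cluster the median log2 ratio was 2.01 for 15 measured genes with the core and 1.28 for 10 without, and in the Ccl11-led cluster 1.97 for 15 and 1.41 for 14. It was 2.02 for 5 and 1.94 for 4 in the Otol1-led cluster, and 1.15 for 6 and 1.34 for 4 in the Cpa6-led cluster, so the order turned there. Of the genes shown above, Gbp7 and Rsad2, with 1 copy of the core, had larger ratios in the Ccl11-led cluster than Isg15, with 3 overlapping copies. Over all cells the medians were 0.04 for 17 genes with the core and -0.01 for 14 without.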

How the data were processed

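Droplet single-cell libraries (10x Genomics 3′ v3.1, per the labels) of pooled ears gave UMI count matrices, which the authors deposited as raw counts. The submitters' processing notes name Cell Ranger 5.0, STAR, Seurat 3.2.2 and the mm10 genome, without their roles. The deposited counts were filtered here (at least 300 genes, at most 20% mitochondrial UMIs). Doublets were scored with Scrublet in scanpy 1.11.5 and removed above a score of 0.2, set after the scores were seen because the automatic thresholds called 0 cells: 1196 (5.99%) noise-only and 826 (3.64%) AAV-Isl1 cells. Cells were clustered with leidenalg 0.10.2 (50 components, 15 neighbours, resolution 1.0, 3114 variable genes) and a class was named from at least 3 markers. Counts were summed per class and scaled to CPM. Ratios have exact conditional binomial intervals, levels exact Poisson intervals and shares exact Clopper-Pearson intervals at 95%, and a count of 0 was set to 3. With 1 library per group no test was made. Genes were picked per class as the 4 with most UMIs, the 4 highest and the 2 lowest ratios with an interval that excluded 1. Not all of these are named in the text: in the Dpep1-led cluster only higher genes are, and in some classes none. Other genes named from a count or list were chosen after their values were seen. The gene set and the lists were chosen with earlier results of these data known. The scripts ran in Python 3.11.15 with NumPy 2.4.6, SciPy 1.17.1 and pandas 2.3.3 and were tested on simulated data. Mx1 was not analysed here.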

Additional observations from a re-analysis of the deposited data

Results flagged for a closer look

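The direction of 13 genes was opposite in 2 classes or clusters, at least 1.5-fold each way and with counting intervals on opposite sides of 1. Other genes had intervals on both sides of 1 without passing that fold both ways. Among them was Ifitm3, with the interval above 1 in 9 classes and below 1 in 7. Each group was 1 library, so the difference between the classes was not tested, and in each pair the classes with the highest and the lowest ratio were taken. Ifit2 was 3.25-fold in the Ccl11-led cluster and 0.550-fold in fibrocyte or mesenchymal-like cells. Ifit3 was 9.32-fold in the Otol1-led cluster and 0.616-fold in Schwann or satellite glia-like cells. Ifit3b was 6.63-fold in the Ccl11-led cluster and 0.512-fold in Schwann or satellite glia-like cells. Isg15 was 2.97-fold in the Ccl11-led cluster and 0.563-fold in Schwann or satellite glia-like cells. Usp18 was 4.41-fold in the Ccl11-led cluster and 0.412-fold in Schwann or satellite glia-like cells. Ube2l6 was 2.91-fold in the Ccl11-led cluster and 0.548-fold in macrophage-like cells. Ifitm1 was 2.89-fold in the Crhbp-led cluster and 0.630-fold in fibrocyte or mesenchymal-like cells. Ifi27l2a was 11.6-fold in the Otol1-led cluster and 0.479-fold in stria marginal cell-like cells. Oasl2 was 6.69-fold in the Otol1-led cluster and 0.475-fold in erythroid-like cells. The Otol1-led cluster values of Ifit3 and Oasl2 rest on 1 and 2 noise-only UMIs, and their direction turned in other settings. Eif2ak2 was 2.65-fold in the Crhbp-led cluster and 0.554-fold in Schwann or satellite glia-like cells. Cmpk2 was 5.95-fold in the Fat2-led cluster and 0.503-fold in fibrocyte or mesenchymal-like cells. Samd9l was 3.77-fold in the Ccl11-led cluster and 0.239-fold in B or plasma cell-like cells. Lgals3bp was at least 3.78-fold in the Otol1-led cluster and 0.656-fold in stria marginal cell-like cells.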

How the results depend on the processing

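The alternatives were strict cells (500 or more genes and no more than 10% of UMIs from mitochondria), doublets kept, the genes clustered on (kept among the clustering genes), a clustering resolution of 0.5, thinning of each cell to 1000 UMIs, removal of the 5 cells of each library richest in these genes (without rich cells), genes measured from 1 or from 50 UMIs, a 2-fold rule (counts are of measured genes), and, added after the data were seen, removal of barcodes found in both libraries and of the Fabp7-led cluster. The summed log2 ratio stayed above 0 in the Otol1-led, Cpa6-led, Crhbp-led and Ccl11-led clusters, cochlear non-sensory epithelium-like and hair cell-like cells, and below 0 in stria marginal cell-like cells and all kept cells, under each alternative that gave a value. Where a value turned or moved, the cause was not tested. A count of 0 was set to 3 in thinned cells and from 1 UMI too. A gene with 0 noise-only and few AAV-Isl1 UMIs can then have a log2 ratio below 0, so medians from 1 UMI give no direction. For hair cell-like cells, the summed log2 ratio (0.54 as reported) was 1.31 with strict cells, 0.94 thinned and 1.22 without rich cells. Its count of genes at least 1.5-fold higher (3 of 6) was 7 of 10 with strict cells, 5 of 6 without rich cells, 5 of 34 from 1 UMI and 1 of 6 at 2-fold. Its median log2 ratio (0.47) was 0.83 with strict cells, 0.092 with doublets, 1.06 thinned, 1.48 without rich cells, -0.44 from 1 UMI and 0.80 from 50 UMIs. The value from 1 UMI includes genes with a count of 0 set to 3, such as Irgm1 with 0 and 6 UMIs. For non-sensory cochlear epithelium-like cells, the summed log2 ratio (0.44 as reported) was 0.63 with strict cells, 0.65 with the genes clustered on and 0.50 thinned. Its count of genes at least 1.5-fold higher (8 of 30) was 22 of 32 with strict cells, 13 of 29 with the genes clustered on, 13 of 38 from 1 UMI and 1 of 30 at 2-fold. Its median log2 ratio (0.38) was 0.91 with strict cells. For Schwann or satellite glia-like cells, the summed log2 ratio (-0.086 as reported) was 0.024 without the Fabp7-led cluster. Its ratio (log2) of Ifi27l2a (0.17) was -0.15 thinned. For stria marginal cell-like cells, the summed log2 ratio (-0.62 as reported) was -0.67 with strict cells. Its count of genes at least 1.5-fold higher (4 of 24) was 2 of 20 with strict cells, 10 of 39 from 1 UMI, 1 of 17 from 50 UMIs and 2 of 24 at 2-fold. Its median log2 ratio (0.11) was 0.47 thinned. For fibrocyte or mesenchymal-like cells, the summed log2 ratio (0.23 as reported) was -0.019 at clustering resolution 0.5. Its ratio (log2) of Bst2 (0.14) was -0.16 at clustering resolution 0.5 and -0.013 thinned. For T or NK cell-like cells, the median log2 ratio (0.37 as reported) was -0.043 from 1 UMI. For B or plasma cell-like cells, the median log2 ratio (0.30 as reported) was -0.19 with doublets, -0.19 with the genes clustered on and -0.56 from 1 UMI. Its ratio (log2) of Isg20 (at least 1.66, from 0 and 56 UMIs) was -0.42 thinned. That value also rests on a noise-only count of 0 set to 3, so it gives no direction. Isg20 was seen in 0 of 20 noise-only and 11 of 143 AAV-Isl1 thinned cells. For erythroid-like cells, the summed log2 ratio (0.087 as reported) was -0.039 thinned. For the Ccl11-led cluster, the summed log2 ratio (0.64 as reported) was 0.69 with doublets, 0.59 thinned and 0.69 without rich cells. For the Cpa6-led cluster, the summed log2 ratio (1.51 as reported) was 1.11 with strict cells, 1.79 with the genes clustered on and 1.20 thinned. Its count of genes at least 1.5-fold higher (11 of 13) was 5 of 6 with strict cells, 5 of 6 thinned, 23 of 35 from 1 UMI and 4 of 5 from 50 UMIs. Its median log2 ratio (1.48) was 1.23 with strict cells, 1.03 with doublets, 1.06 with the genes clustered on, 1.20 thinned and 1.11 from 1 UMI. For the Crhbp-led cluster, the summed log2 ratio (1.09 as reported) was 0.99 with doublets and 1.19 without rich cells. Its median log2 ratio (1.51) was 1.22 with doublets. For the Otol1-led cluster, the summed log2 ratio (2.45 as reported) was 2.13 with doublets. Its count of genes at least 1.5-fold higher (11 of 12) was 5 of 5 with doublets, 4 of 4 with the genes clustered on, 4 of 5 thinned, 18 of 35 from 1 UMI and 4 of 5 from 50 UMIs. Its median log2 ratio (1.99) was 2.40 with the genes clustered on, 2.42 thinned and 0.70 from 1 UMI. Its ratio (log2) of Ifit3 (3.22) was -0.45 with doublets, -0.53 with the genes clustered on and -0.22 thinned. Its ratio (log2) of Oasl2 (2.74) was -0.31 with the genes clustered on. For all kept cells, the summed log2 ratio (-0.07 as reported) was -0.10 with strict cells and -0.061 with mitochondrial, ribosomal and hemoglobin genes left out. Its count of genes at least 1.5-fold higher (3 of 39) was 1 of 39 with strict cells and 1 of 39 at 2-fold. For neuron-like cells, the log2 ratio of Ifi27 (0.16 as reported) was -0.14 thinned. Its ratio (log2) of Gbp7 (2.83) was -0.49 thinned, from a noise-only count of 0 set to 3, which gives no direction. For osteoblast or osteocyte-like cells, the log2 ratio of Ifitm3 (-0.18 as reported) was 0.0035 with strict cells. For macrophage-like cells, the log2 ratio of Ifi27l2a (-0.073 as reported) was 0.091 thinned. No cluster of strict cells matched the Crhbp-led or Otol1-led cluster, and none at resolution 0.5 matched the Ccl11-led or Fat2-led cluster (at least 0.5 of the cells shared over the union), so no value was given there. No paired analysis was possible because each group was 1 library of pooled mice, without replicate numbers. Few UMIs limit genes near the minimum of 20, and the Otol1-led cluster had 71 noise-only cells.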

Other observations

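Interferon ligands were near the detection limit. Ifng, the gene of interferon gamma, had 2 UMIs in 2 noise-only cells and 46 UMIs in 31 AAV-Isl1 cells, 35 of the 46 in T or NK cell-like cells. Ifnk, of the type I family, had 160 and 176 UMIs, most often in stria intermediate cell-like cells (67 and 81). Of 9 receptor and transducer genes, 0 were at least 1.5-fold higher or lower over all cells (7.65% and 3.62% of all genes were), a count too small to set them apart, with Jak1 at 116 and 117 CPM and Ifnar2 at 103 and 93.1 CPM. Of 8 measured nucleic acid sensor genes, 0 passed that fold, with Irf3 at 26.1 and 23.1 CPM and Tbk1 at 21.0 and 22.3 CPM.

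Of the populations too small to compare, neutrophil or progenitor-like cells (24 and 465) had 3102 and 3983 CPM for the 39 genes, ciliated or middle ear epithelium-like cells (50 and 32) 1705 and 1686 CPM, and the Cox6a2-led cluster (36 and 95) 5172 and 4139 CPM.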
